A study of Mus musculus with 12 samples.

Results

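Ighm, Ighd, Bank1, Blnk, Btk, Cd79b, Cd22 and Lyn, 8 genes best known from B lymphocytes, were followed in RNA of nuclei captured as microglial from injured mouse spinal cord. They were picked by name with the difference between 3 days and sham already known. They are 8 of 49585 genes in the deposited tables, and 7 of them are among the 18451 genes with enough counts for a test; Cd79b is not. All mice were C57BL/6, and every library pooled cord tissue of 3 animals, taken from around the lesion. Injured mice were sampled at 3, 7 and 14 days, and the sham-operated mice carry the 7-day label, with 3 libraries in each of these 4 groups. In all groups the nuclei were pulled down by an antibody to green fluorescent protein. The promoter or allele that drives this protein is not named in the labels.

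A mature B cell reads antigen with a surface immunoglobulin. Ighm and Ighd encode the constant regions of its mu and delta heavy chains, and Cd79a and Cd79b encode the signalling chains that carry it. The Src-family kinase Lyn starts the signal, the adaptor Blnk and the kinase Btk pass it on, the adaptor Bank1 binds kinases of the pathway, and Cd22, a sialic-acid-binding lectin (Siglec-2), recruits phosphatases that dampen it. Lyn, Btk and Blnk are also used by myeloid cells, and Cd22 has been described on mouse microglia as a brake on phagocytosis.

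Libraries held 4003480 to 10670804 counts. Levels are given in CPM (counts relative to the library total, scaled between libraries by TMM), and spread is the SD over n = 3 libraries unless stated. Microglial Csf1r was high in every group, with means of 1100 CPM at 3 days, 1325 CPM at 7 days, 1194 CPM at 14 days and 1181 CPM in sham. Sham replicate 4 stood apart. The 7 astrocyte markers summed to 1352 to 2602 CPM in the injured libraries, and to 5045 CPM in sham replicate 4, 1449 CPM in sham replicate 3 and 579.8 CPM in sham replicate 2. Sham replicate 4 was also the highest sham library in fibroblast and pericyte markers (519.3 CPM, against 69.5 and 52.8 CPM in sham replicates 3 and 2) and in endothelial markers (131.6 CPM, against 37.0 and 39.8 CPM). It also had the highest Ighm, Ighd, Bank1, Blnk and Lyn of all 12. Of the 7 astrocyte markers, Gfap, Gja1 and Aldh1l1 were called higher than sham at 14 days, where 5.02% of all genes were. Gfap held 390.7 CPM at 14 days, against 91.4 CPM in sham. The calls of Gfap and Gja1 held under all 14 alternatives, and that of Aldh1l1 ended under 7. At 7 days Slc1a2 was called lower, a call that ended under 7 of 14. Gfap and Gja1 also rose at 14 against 7 days, where 2.19% of all genes were called. The 7 neuron markers summed to 1840 to 2421 CPM at 3 days, 1673 to 1826 CPM at 7 days and 1199 to 1804 CPM at 14 days, against 2845 to 4412 CPM in sham. The sum of neuron markers was thus lower in all 9 injured libraries than in sham. Single markers differed: 4 of the 7 were called lower at 7 days and 2 at 14 days. Of all genes tested, 4.67% and 4.79% were called lower there. Meg3 stood at 1344 CPM at 3 days, 766.5 CPM at 7 days and 158.1 CPM at 14 days, against 1561 ± 1197 CPM in sham. The part of neuronal RNA in the results for Ighm, Ighd and Bank1, also lower in all 9 injured libraries, was not tested. Since these are bulk nuclei, fewer cells of a type and less RNA per cell cannot be told apart.

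Ighm (ENSMUSG00000076617; GRCm38 chromosome 12, 113418558 to 113422730, minus strand) encodes the mu heavy-chain constant region. It stood at 131.4, 157.3 and 171.8 CPM at 3 days, 220.8, 113.6 and 145.1 CPM at 7 days, and 97.7, 123.7 and 117.4 CPM at 14 days. In sham it stood at 229.3, 422.2 and 551.8 CPM. Every injured library lay below every sham library, but only just for 7-day replicate 1 beside sham replicate 2. Ighm fell by 1.33 ± 0.28 (SE) on the log2 scale at 7 days (edgeR quasi-likelihood test, Benjamini-Hochberg adjusted p = 0.0109). At 14 days it fell by 1.83 ± 0.29 (edgeR adjusted p = 0.00132), so that its level was 3.55-fold lower than in sham. The fold change at 3 days, which takes no test because it guided the choice of genes, was -1.38 ± 0.28. Both tests share their sham libraries with that value and with each other. The 7-day call ended when the fit held the 7-day and sham libraries alone (-1.36, edgeR adjusted p = 0.0775).

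Ighd (ENSMUSG00000104213; chromosome 12, 113406604 to 113416324, minus strand) encodes the delta constant region and lies 2233 bp from Ighm on the same strand. It reached 11.6, 14.3 and 9.51 CPM at 3 days, 37.7, 10.7 and 17.9 CPM at 7 days, and 15.4, 14.3 and 15.4 CPM at 14 days. Sham libraries held 45.0, 58.1 and 84.8 CPM. The groups did not overlap, and 7-day replicate 1 was again the injured library nearest to sham. Ighd fell by 2.05 ± 0.37 on the log2 scale at 14 days against sham (edgeR adjusted p = 0.00347). At 7 days its log2 fold change was -1.51 ± 0.36 (edgeR adjusted p = 0.0194). That call ended without 7-day replicate 3 (-1.18, edgeR adjusted p = 0.0513), without 7-day replicate 4 (-1.41, edgeR adjusted p = 0.0713), or with the 7-day and sham libraries alone (-1.53, edgeR adjusted p = 0.101). Without 7-day replicate 1 the fall was larger (-2.10, edgeR adjusted p = 0.00292). At 3 days the fold change was -2.41 ± 0.38, given without a test.

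**Figure D1:**
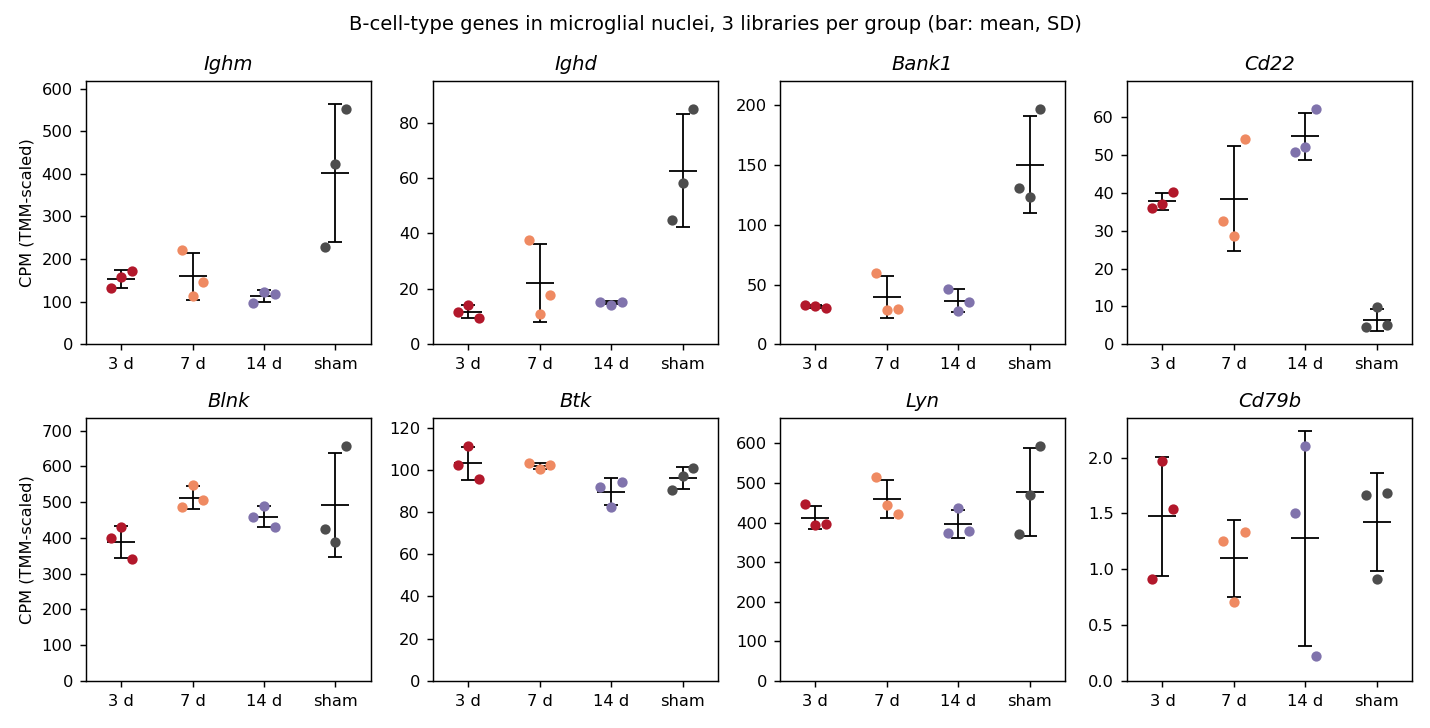
Level of each of the 8 genes in CPM (vertical axes, linear and starting at 0) in the 3-day, 7-day, 14-day and sham libraries; points are libraries and bars the mean and SD of 3. Ighm, Ighd and Bank1 lie lower and Cd22 lies higher in all injured libraries than in sham, while Cd79b stays at or below 2.10 CPM in every library.

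In B cells the mu and delta chains are spliced from a shared primary transcript, so the share of Ighd among the counts of both genes was followed as well. That share was 8.12%, 8.31% and 5.25% at 3 days, 14.6%, 8.64% and 10.99% at 7 days, and 13.6%, 10.3% and 11.6% at 14 days. In sham it was 16.4%, 12.1% and 13.3%. At 3 days all 3 shares were below those of the other 9 libraries; the 3-day and sham shares come from the comparison that guided the choice and are a description. The deepest library, 3-day replicate 3, had 1788 Ighm and 99 Ighd counts, and the exact binomial interval of its share ran from 4.28% to 6.35%, counting error only. Means were 7.23% ± 1.72 at 3 days, 11.4% ± 2.99 at 7 days, 11.8% ± 1.65 at 14 days and 13.9% ± 2.22 in sham. An exact two-sided permutation test gave p = 0.4 for 7 days against sham, p = 0.3 for 14 days against sham and p = 0.9 for 14 against 7 days, where 0.1 is the smallest p that 3 against 3 libraries allow. Comparisons with the 3-day shares are given without a test, since those libraries guided the choice of genes.

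**Figure D2:**
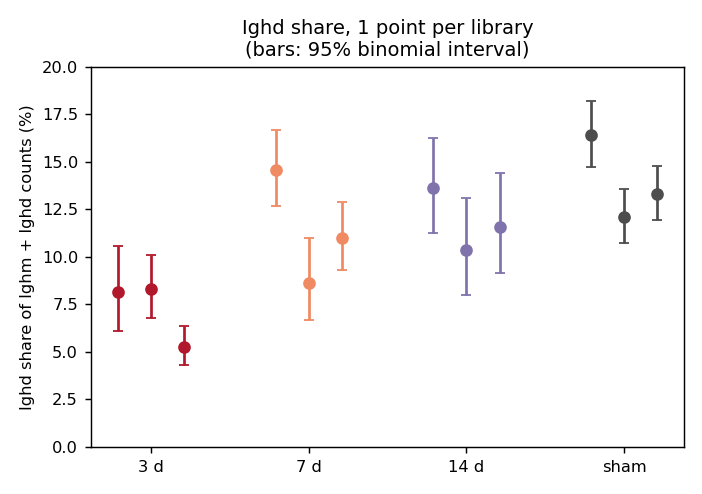
Ighd counts as a percentage of Ighm plus Ighd counts (vertical axis) in the 3-day, 7-day, 14-day and sham libraries; points are libraries and bars exact 95% binomial intervals, which cover counting error only. The 3-day shares, 5.25% to 8.31%, lie under the other libraries, whose lowest is 8.64%, though the intervals of 3-day replicate 2 and 7-day replicate 3 overlap.

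Bank1 (ENSMUSG00000037922; chromosome 3, 136053363 to 136326066, minus strand) encodes an adaptor that links the B-cell receptor to Src-family kinases and calcium release. It held 32.6, 32.2 and 30.6 CPM at 3 days, 59.9, 29.1 and 29.6 CPM at 7 days, and 46.6, 28.1 and 35.2 CPM at 14 days. Sham libraries held 130.6, 123.0 and 196.8 CPM. Even the highest injured library had less than the lowest sham library by a wide margin. Bank1 fell by 1.93 ± 0.29 on the log2 scale at 7 days, with an edgeR adjusted p of 0.00132. At 14 days it fell by 2.03 ± 0.29 (edgeR adjusted p = 0.000671). These changes made it 3.81-fold and 4.08-fold lower than in sham. At 3 days its fold change was -2.24 ± 0.29, given without a test.

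Cd22 (ENSMUSG00000030577; chromosome 7, 30865402 to 30880342, minus strand) went the other way. It had 36.0, 37.2 and 40.2 CPM at 3 days, 32.7, 28.5 and 54.3 CPM at 7 days, and 50.8, 52.1 and 62.1 CPM at 14 days. In sham it had 4.54, 9.83 and 5.04 CPM. No injured library came near the sham level. Cd22 rose by 2.59 ± 0.31 on the log2 scale at 7 days (edgeR adjusted p = 0.000259), which is 6.01-fold. At 14 days it rose by 3.10 ± 0.31 (edgeR adjusted p = 3.69e-05), or 8.55-fold with a 95% interval of 2.43 to 3.77 on the log2 scale. At 3 days its fold change was 2.56 ± 0.31, given without a test.

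Without sham replicate 4 these 4 genes kept direction and call at 7 and 14 days. The 14-day log2 fold changes were then -1.54 for Ighm, -1.79 for Ighd, -1.80 for Bank1 and 2.96 for Cd22. At 7 days they were -1.03 for Ighm, -1.24 for Ighd (edgeR adjusted p = 0.0451), -1.70 for Bank1 and 2.47 for Cd22.

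The promoter windows of Bank1, which fell, Cd22, which rose, and the kinase adaptor Blnk, which did neither, are shown to compare genes of the same pathway that moved differently. Each is the 250 bases before the start that RefSeq gives the gene on the minus strand of GRCm38.p6; RefSeq held a window for 4 of the 8 genes (these 3 and Btk). The Cd22, Blnk and Btk windows lie inside the wider GENCODE spans given for these genes, whose outermost start is further upstream, and the Bank1 window lies just before its span. Capitals mark AGGAAG, a core bound by the Ets factor PU.1, and the octamer bound by Oct factors, ATGCAAAT, which is printed as ATTTGCAT where it lies on the opposite strand. Bank1 is at chr3:136326067-136326316, Cd22 at chr7:30879029-30879278 and Blnk at chr19:40994222-40994471.
Bank1: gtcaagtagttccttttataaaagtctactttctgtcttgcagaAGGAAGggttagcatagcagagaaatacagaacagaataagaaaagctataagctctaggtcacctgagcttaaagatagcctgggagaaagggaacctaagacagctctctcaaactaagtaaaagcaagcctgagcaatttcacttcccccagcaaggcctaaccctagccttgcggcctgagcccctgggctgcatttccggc
Cd22: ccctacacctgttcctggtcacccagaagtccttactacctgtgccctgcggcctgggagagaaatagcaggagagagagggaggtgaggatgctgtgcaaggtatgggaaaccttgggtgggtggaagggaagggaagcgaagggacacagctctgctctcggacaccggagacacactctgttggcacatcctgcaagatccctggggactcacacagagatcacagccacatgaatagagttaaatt
Blnk: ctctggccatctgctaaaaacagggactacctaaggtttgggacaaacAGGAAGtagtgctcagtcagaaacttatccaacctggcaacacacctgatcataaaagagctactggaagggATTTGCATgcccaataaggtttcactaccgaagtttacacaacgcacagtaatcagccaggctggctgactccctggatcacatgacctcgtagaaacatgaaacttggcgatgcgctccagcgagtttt
AGGAAG, searched on both strands, begins 206 bases before the start of Bank1 and 202 bases before that of Blnk, and is absent from the Cd22 and Btk windows. It is in 29.5% of 32851 promoter windows of this length. The octamer, 130 bases before the start of Blnk, is in 1.60% of windows. GAGGAAGT, a longer PU.1-type motif that overlaps AGGAAG, is in 2.44% of windows and in none of the 4. These are matches of letters and say nothing of binding. Guanine and cytosine made up 46.4% of the Bank1, 55.2% of the Cd22 and 47.6% of the Blnk window, against a median of 52.4% over all windows.

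Lyn, Blnk and Btk, the kinases and the adaptor that myeloid cells also use, were abundant in every group. Lyn (ENSMUSG00000042228; chromosome 4, 3678115 to 3813122, plus strand) had 446.0, 394.9 and 396.3 CPM at 3 days, 514.7, 444.3 and 422.0 CPM at 7 days, and 372.5, 437.8 and 378.0 CPM at 14 days. Its sham values were 370.7, 468.6 and 593.8 CPM, and these span all the injured values. The log2 fold change of Lyn against sham was -0.05 ± 0.17 at 7 days (edgeR adjusted p = 0.874, 95% interval -0.42 to 0.31). At 14 days it was -0.27 ± 0.17 (edgeR adjusted p = 0.343, 95% interval -0.64 to 0.10).

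Blnk (ENSMUSG00000061132; chromosome 19, 40928927 to 40994535, minus strand), which links Syk to Btk and phospholipase C gamma, had 398.4, 429.2 and 340.1 CPM at 3 days. It had 485.2, 546.6 and 505.0 CPM at 7 days and 459.0, 488.1 and 430.8 CPM at 14 days. In sham it had 425.7, 389.8 and 657.0 CPM, so the groups overlapped. The log2 fold change of Blnk was 0.06 ± 0.18 at 7 days against sham (edgeR adjusted p = 0.859, 95% interval -0.33 to 0.45). At 14 days it was -0.10 ± 0.18 (edgeR adjusted p = 0.787), a sign that turned without sham replicate 4 (0.16).

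Btk (ENSMUSG00000031264; chromosome X, 134542336 to 134583570, minus strand), the kinase downstream of Blnk, varied within 82.3 to 111.3 CPM. It had 102.3, 111.3 and 95.7 CPM at 3 days, 103.1, 100.4 and 102.3 CPM at 7 days, and 91.9, 82.3 and 94.4 CPM at 14 days. Sham libraries had 90.5, 97.2 and 101.1 CPM. The 95% interval of its log2 fold change against sham ran from -0.23 to 0.39 at 7 days and from -0.41 to 0.21 at 14 days, with edgeR adjusted p of 0.75 and 0.7. The fold changes of Lyn, Blnk and Btk at 3 days, given without a test, were -0.21, -0.33 and 0.10. Genes on the opposite strand overlap Lyn, Btk, Bank1 and Cd22, and the sources used here do not say whether counting used strand. The partner of Cd22 had 0 counts, and that of Bank1 has no entry under its name in the deposited data. Those of Lyn had 113 to 12000 counts over all libraries, and that of Btk had 326 counts.

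Cd79b (ENSMUSG00000040592; chromosome 11, 106311341 to 106314762, minus strand), the signalling chain that surface immunoglobulin needs to reach the membrane, was close to the detection limit. It had 0.911, 1.97 and 1.54 CPM at 3 days, 1.26, 0.704 and 1.34 CPM at 7 days, and 1.51, 2.10 and 0.223 CPM at 14 days. Sham libraries had 1.67, 0.914 and 1.68 CPM. These are 1 to 16 counts a library, where 3 counts correspond to 0.281 to 0.749 CPM. Cd79b did not pass the count filter, so the edgeR fit made no test of a difference between its groups.

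Of the 7 genes tested, 3 were called lower and 1 higher than sham at 7 days. Over all genes tested, 9.28% were called at 7 days, 4.67% lower and 4.61% higher (edgeR adjusted p under 0.05). At 14 days the counts were again 3 lower and 1 higher, while 9.82% of all genes were called, 4.79% lower and 5.02% higher. The median log2 fold change of the 7 was -0.05 at 7 days and -0.27 at 14 days, against 0.01 and -0.05 over all genes tested. At 3 days, where these genes were chosen, 3 were lower and 1 higher, and 20% of all genes were called, 9.17% lower and 10.9% higher; nothing is read from that count. The 4 genes that moved did not overlap with sham at 7 or at 14 days; libraries did not overlap for 22.8% and 29.7% of all genes tested. At 3 days, where the choice fixed this, that share was 34.2%. The 7-day and 14-day comparisons reuse the sham libraries of the 3-day comparison behind the choice. Their counts of called and of non-overlapping genes are therefore not independent of that choice, nor are the tests of Ighd, Bank1 and Cd22.

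Between the injured times no gene of the 7 passed. The comparison of 14 with 7 days uses none of the libraries behind the choice of genes. There edgeR called 0 of 7, with 0 at an unadjusted p under 0.05, and DESeq2 and limma also called 0, where edgeR called 2.19% of all genes. The log2 fold changes at 14 against 7 days were -0.55 ± 0.37 for Ighd (edgeR adjusted p = 0.467, 95% interval -1.33 to 0.24) and -0.50 ± 0.28 for Ighm (edgeR adjusted p = 0.372, 95% interval -1.10 to 0.10). They were -0.10 ± 0.28 for Bank1 (edgeR adjusted p = 0.904) and 0.51 ± 0.27 for Cd22 (edgeR adjusted p = 0.353, 95% interval -0.08 to 1.09). The intervals for Ighd and Ighm reach from a further fall to a slight rise. The sign for Bank1 turned with the replicate number as a block (0.011) and on RPKM (0.045 and 0.059), and with 1 library left out it ran from -0.28 to 0.32. The sign for Ighd turned as well with 1 library left out, when it ran from -0.89 to 0.057.

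The comparisons with 3 days reuse the 3-day libraries behind the choice of genes, so their values are a description. At 7 against 3 days edgeR called 0 of the 7, with 13.4% of all genes called; Ighd and Blnk had an unadjusted p under 0.05, and DESeq2 and limma called 0. Ighd was at 0.90 ± 0.37 there (95% interval 0.11 to 1.69), and at 1.25 without 7-day replicate 3. At 14 against 3 days edgeR called 0 of the 7, with 0 at an unadjusted p under 0.05 and 7.31% of all genes called; DESeq2 and limma called 0. With the 14-day and 3-day libraries alone 2 passed, Cd22 (0.55) and Ighm (-0.44). In that smaller fit 4886 of all genes were called, against 1349 in the fit of the 4 groups.

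**Figure D3:**
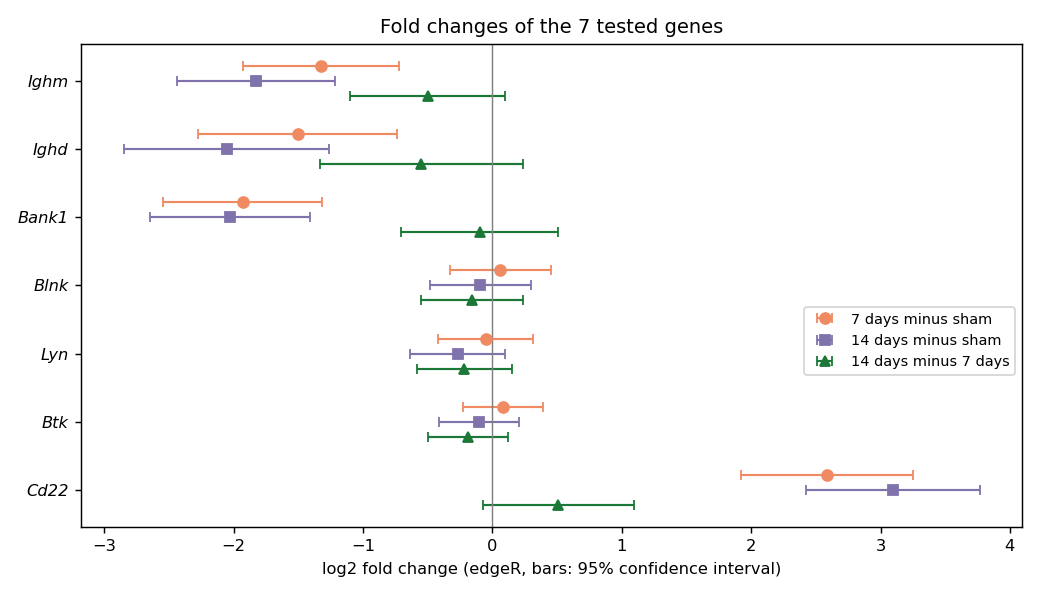
Log2 fold change (horizontal axis) of the 7 tested genes at 7 days minus sham, 14 days minus sham and 14 minus 7 days; bars are 95% confidence intervals of the edgeR fit. Intervals against sham exclude 0 for Ighm, Ighd, Bank1 and Cd22, and every interval of 14 minus 7 days includes 0.

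Per kilobase, Lyn led the 8 genes in injured cord and Ighm in sham. In RPKM (counts scaled by gene length and library total, as the authors deposited them), Lyn had the highest mean of the 8 at 3, 7 and 14 days, with 100.8, 109.8 and 102.5. Ighm came next at 3 days (80.8 RPKM, with Blnk at 64.7), stood beside Blnk at 7 days (82.3 and 83.2 RPKM) and lay below it at 14 days (63.1 RPKM, with Blnk at 80.8). In sham Ighm had the highest mean, 205.1 RPKM, with Lyn at 113.0 and Blnk at 78.1 RPKM. At 14 days the libraries of Ighm (54.4 to 69.5 RPKM) lay wholly under those of Blnk (75.6 to 86.3 RPKM), and these under those of Lyn (96.1 to 113.9 RPKM). In sham the ranges of Ighm (113.7 to 261.0 RPKM) and Lyn (85.1 to 130.1 RPKM) overlapped, as did those of Lyn and Blnk. Cd22 at 14 days (11.5 RPKM) stood above Ighd (8.32 RPKM) and Bank1 (5.15 RPKM), whereas in sham it stood at 1.28 RPKM, below Ighd at 31.6 and Bank1 at 19.1. At 7 days Ighd (11.3 RPKM) stood above Cd22 (7.53 RPKM), as in sham, and at 3 days the mean of Cd22 (7.44 RPKM) was above that of Ighd (6.18 RPKM). Cd79b was lowest in all 4 groups, at 0.754 to 1.02 RPKM.

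The markers that define B cells were nearly absent beside these levels. Of 19 B-lineage markers, 16 averaged below 1 CPM over the 12 libraries and Iglc2 had no count at all. Ms4a1, which encodes CD20, averaged 0.384 CPM and was at 0 in 5 libraries, and the B-cell master regulator Pax5 averaged 0.646 CPM and was at 0 in 2. Cd79a, the partner chain of Cd79b, averaged 0.721 CPM. The light chains that complete an immunoglobulin had 0, 2 and 9 counts at 3 days, 1, 2 and 6 at 7 days, 7, 3 and 5 at 14 days, and 33, 0 and 2 in sham, against at least 527 Ighm counts in every library. Sham replicate 3, at 422.2 CPM of Ighm, had 0 light-chain counts. The 19 markers summed to 11.8 to 17.8 CPM at 3 days, 12.8 to 17.6 CPM at 7 days, 17.8 to 21.2 CPM at 14 days and 17.9 to 45.9 CPM in sham. The highest sum is that of sham replicate 4, of which 36.1 CPM is the complement receptor gene Cr2.

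**Figure D4:**
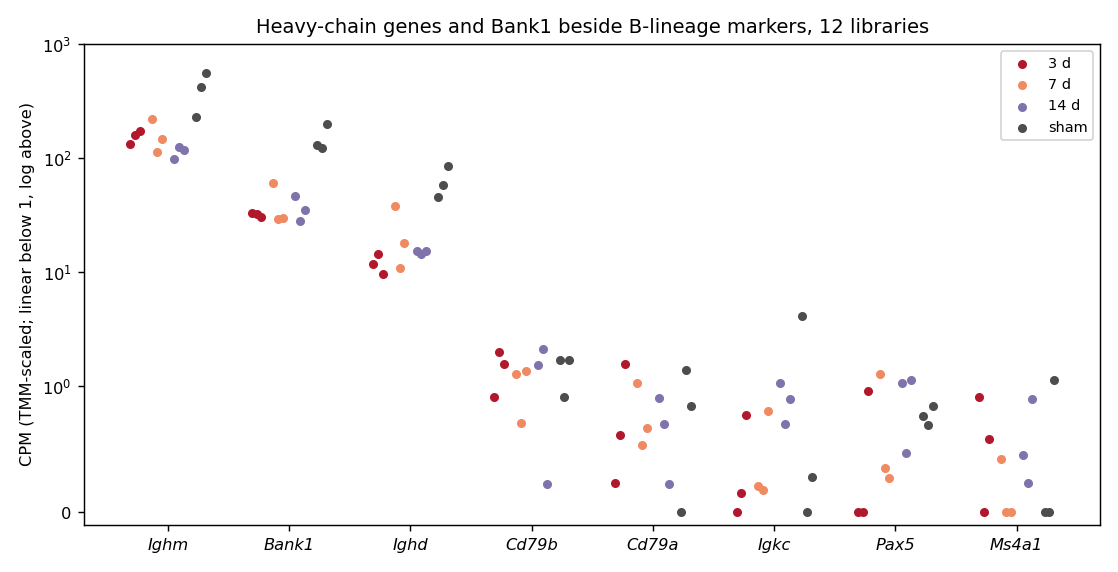
Levels of Ighm, Bank1, Ighd and Cd79b beside the B-lineage markers Cd79a, Igkc, Pax5 and Ms4a1 in CPM (vertical axis, linear below 1 and logarithmic above); each point is 1 of 12 libraries, coloured by group. Ighm, Bank1 and Ighd lie at 9.51 CPM or more in every library, and the other genes lie at 4.09 CPM or less.

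Of those 19 markers, Cr2 and Tnfrsf13c had enough counts for a test, and edgeR, DESeq2 and limma called 0 of these 2 against sham at 7 and at 14 days, with 1 at an unadjusted p under 0.05 each time. At 3 days, given without a test, Cr2 stood at 6.70 ± 1.73 CPM, against 19.9 CPM in sham, a log2 fold change of -1.57. Of 11 plasma cell markers, 8 averaged below 1 CPM, and of the 3 tested (Tnfrsf17, Prdm1 and Irf4) edgeR, DESeq2 and limma called 0 at 7 or 14 days, with 2 and 1 at an unadjusted p under 0.05. Tnfrsf17, the receptor BCMA, had a log2 fold change of -2.95 at 3 days, given without a test, with 0.831 CPM against 6.29 CPM in sham. Their sums were 71.7 to 75.3 CPM at 3 days, 59.5 to 68.0 CPM at 7 days, 65.3 to 79.4 CPM at 14 days and 59.9 to 111.4 CPM in sham. Among 12 genes of the heavy-chain locus, only Ighm and Ighd were tested, and 9 averaged below 1 CPM. The joining segment Ighj4, with 0 to 20 counts a library, averaged 1.09 CPM and was not tested. It held 0.229 CPM at 3 days, 1.32 CPM at 7 days and 0.732 CPM at 14 days, against 2.07 CPM in sham. The T-cell receptor genes Cd3d, Cd3e, Cd3g, Trac and both Trbc genes averaged below 1 CPM. Il7r, the interleukin-7 receptor gene on that T and NK cell list, fell by 1.22 ± 0.32 on the log2 scale at 7 days (edgeR adjusted p = 0.0288), to 47.2 ± 17.3 CPM, against 109.6 ± 42.9 CPM in sham. That call ended under 4 of 14 alternatives, among them without 7-day replicate 4 and without sham replicate 4. Il7r also fell by 1.84 ± 0.33 at 14 days (edgeR adjusted p = 0.00314), a call that held under all 14 alternatives.

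Markers of resident microglia and of macrophages were followed beside the genes that moved. Of 12 homeostatic markers, edgeR called 0 at 7 days (3 at an unadjusted p under 0.05), DESeq2 called 3 and limma called 0. At 7 days 4.67% of all genes tested were called lower. At 14 days, when 4.79% were, 4 of the 12 fell: P2ry12 (-1.55), P2ry13 (-1.13), Siglech (-1.07) and Sall1 (-0.73). With 14-day replicate 3 left out 1 of the 12 passed, Siglech, which passed under all 14 alternatives. The 12 markers summed to 3532 to 4214 CPM at 3 days, 4565 to 6048 CPM at 7 days and 3961 to 4915 CPM at 14 days, against 5444 to 6866 CPM in sham. Markers of monocyte-derived macrophages summed to 1272 to 1747 CPM at 3 days, 315.1 to 678.5 CPM at 7 days and 812.1 to 936.0 CPM at 14 days, against 177.9 to 353.3 CPM in sham. Of 8 of these tested, 2 rose and 0 fell at 7 days, where 4.61% of all genes were called higher. At 14 days 2 rose, 1 fell and 5 were not called, where 5.02% of all genes were called higher. The 2 that rose, Fn1 and Lyz2, held 440.5 and 300.4 CPM at 14 days, against 36.3 and 46.3 CPM in sham. Vcan fell at 14 days (-1.20, edgeR adjusted p = 0.00195). Those of border-associated macrophages summed to 907.7 to 1112 CPM at 3 days, 896.7 to 1260 CPM at 7 days and 412.6 to 560.3 CPM at 14 days, against 915.3 to 1389 CPM in sham. Of 9 such markers tested, 1 rose and 1 fell at 7 days, and 0 rose and 6 fell at 14 days. At 3 days 1 rose and 4 fell, where 10.9% of all genes were called higher and 9.17% lower. The hyaluronan receptor gene Lyve1 fell at 7 days (-2.20) and at 14 days (-1.91), and the scavenger receptor genes Stab1 (-0.95) and Cd163 (-1.98) fell at 14 days. The 3-day sum hides opposite changes. Stab1, its largest part, stood at 801.4 CPM at 3 days, against 510.5 CPM in sham. Mrc1 stood at 83.6 against 261.6 CPM, Cd163 at 36.5 against 130.6 CPM and Lyve1 at 9.45 against 68.1 CPM. The call of Stab1 held under all 14 alternatives, and the other 5 calls at 14 days ended without 14-day replicate 2 and without 14-day replicate 3. The 7-day call of Lyve1 ended without 7-day replicate 3, 7-day replicate 4 or sham replicate 4. Endothelial markers, 7 in number, summed to 201.8 to 461.0 CPM at 3 days, 47.8 to 56.2 CPM at 7 days and 307.2 to 316.3 CPM at 14 days, against 37.0 to 131.6 CPM in sham. At 14 days 4 were called higher than sham, where 5.02% of all genes were. At 7 days 1 was called lower, Pecam1 (-1.63, edgeR adjusted p = 0.0117), a call that ended with the 7-day and sham libraries alone. At 14 against 7 days 6 of the 7 rose, where 2.19% of all genes were called. Fibroblast and pericyte markers summed to 281.3 to 879.1 CPM at 3 days, 29.1 to 122.4 CPM at 7 days and 536.2 to 640.3 CPM at 14 days, against 52.8 to 519.3 CPM in sham. Of these 7 markers, 0 were called against sham at 7 or at 14 days, and 2 rose at 14 against 7 days. Rgs5, the largest part of the 14-day sum, averaged 398.7 CPM there and 119.3 CPM in sham (edgeR adjusted p = 0.219). The part of these cells in the change of Ighm, Ighd, Bank1 and Cd22 was not tested.

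Of 30 other genes of the B-cell receptor pathway, all tested, 2 rose and 0 fell at 7 days, where 9.28% of all genes were called. At 14 days 3 rose and 2 fell, where 9.82% of all genes were called. Their median log2 fold change was 0.15 at 7 days and -0.14 at 14 days, against 0.01 and -0.05 over all genes tested. With 1 library left out, 1 to 7 of the 30 passed at 7 days and 1 to 8 at 14 days, and with the 7-day and sham libraries alone 0 passed. Fgr, a Src-family kinase of myeloid cells, had 51.9, 70.1 and 59.2 CPM at 3 days, 63.7, 55.5 and 90.7 CPM at 7 days, 86.5, 95.8 and 106.3 CPM at 14 days and 13.9, 22.4 and 42.8 CPM in sham. It rose by 1.43 at 7 days and by 1.89 at 14 days on the log2 scale (edgeR adjusted p = 0.0134 and 0.00224), and its injured libraries lay above sham. Cd72, an inhibitory coreceptor like Cd22, stood at 104.2 ± 11.4 CPM at 3 days, 72.5 ± 29.8 CPM at 7 days, 50.2 ± 2.03 CPM at 14 days and 21.8 ± 10.9 CPM in sham. It rose by 1.71 at 7 days and by 1.18 at 14 days (edgeR adjusted p = 0.00737 and 0.0392). Cd81, which encodes a tetraspanin of the cell surface, rose by 0.73 at 14 days (edgeR adjusted p = 0.022). The exchange factor gene Vav3 fell by 1.13 (edgeR adjusted p = 0.0165) and the adaptor gene Dapp1 by 0.73 (edgeR adjusted p = 0.0244) at 14 days. The 14-day call of Fgr held under all 14 alternatives, and those of Cd72, Cd81, Vav3 and Dapp1 ended under 5, 2, 6 and 7 of 14, each of them without 14-day replicate 2 and without 14-day replicate 3. At 7 days the call of Fgr ended without 7-day replicate 4 and with the 7-day and sham libraries alone, where that of Cd72 ended too. At 14 against 7 days edgeR and limma called 0 of the 30 (9 at an unadjusted p under 0.05) and DESeq2 called 3.

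**Figure D5:**
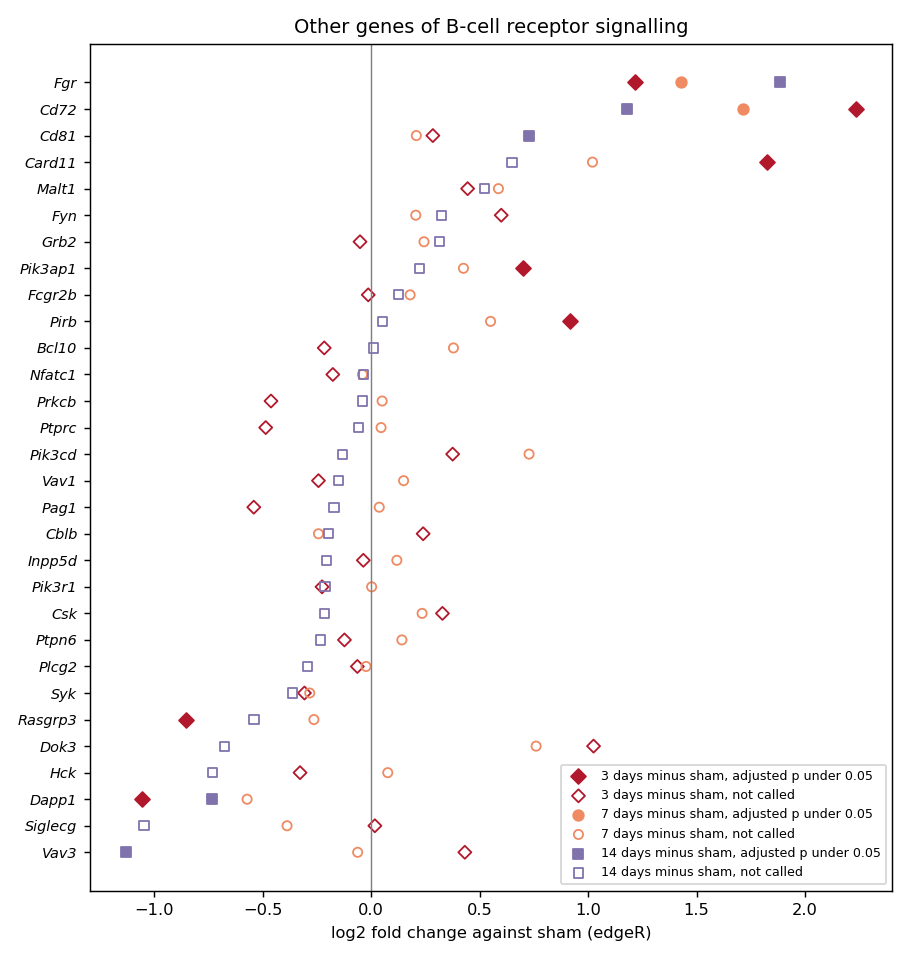
Log2 fold change against sham (horizontal axis) of 30 other B-cell receptor pathway genes at 3, 7 and 14 days, ordered by the 14-day value; filled symbols mark an adjusted p under 0.05 and open symbols the rest. Fgr and Cd72 are filled at 7 and 14 days on the right, and Vav3 and Dapp1 are filled at 14 days on the left.

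Of 12 transcription factor genes that B cells and microglia share, 1 was called at 7 and at 14 days against sham, a share near the 9.28% and 9.82% of all genes. That gene, Irf8, held 345.5 ± 32.7 CPM at 7 days and 316.8 ± 4.58 CPM at 14 days, against 185.1 ± 59.7 CPM in sham. Its log2 fold change was 0.90 at 7 days and 0.77 at 14 days (edgeR adjusted p = 0.0138 and 0.0243). The 14-day call ended with the replicate number as a block, with the 14-day and sham libraries alone, and without any 1 of the 14-day libraries. The 7-day call ended without 7-day replicate 4 and with the 7-day and sham libraries alone. Spi1, which encodes PU.1, was at -0.17 at 7 days and 0.07 at 14 days (edgeR adjusted p = 0.66 and 0.878).

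Across the 12 libraries the genes that fell varied together, as a description over points that share groups and libraries. These libraries include those behind the choice of genes, and r includes the step from sham to injured cord. Genes that fall at this step run alike, and against a gene that rises. The choice therefore largely fixed the signs of r among Ighm, Ighd, Bank1 and Cd22. Whether these genes vary together within groups was not tested. Pearson's r of log2 CPM was 0.95 between Ighd and Bank1, 0.892 between Ighd and Ighm and 0.872 between Ighm and Bank1. Cd22 ran against them, with r of -0.916 to Bank1, -0.821 to Ighd and -0.820 to Ighm. Among 9410 genes with a mean of at least 10 CPM, the genes most like Ighd were Plxna4 (0.969), Bank1 (0.950) and Asb2 (0.946). Those most like Ighm were Rimkla (0.943), Ralgps1 (0.940) and Gna15 (0.924), and those most like Bank1 were Nos1ap (0.960), Prkca (0.951) and Ighd. Those most like Cd22 were Mfsd12 (0.989), Fam20c (0.985) and Atg7 (0.981). The steady genes had other partners: Runx1 (0.935), Cd84 (0.924) and Ube2j1 (0.920) for Blnk, Vash2 (0.902), Acap2 (0.898) and Tti1 (0.882) for Lyn, and Zcchc2 (0.816) and Tspan32 (0.807) for Btk.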

How the data were processed

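The submitters' processing notes name featureCounts 1.4.6-p3 and, as builds, GRCm38 with mm10. The aligner and strand setting were not given in the sources used here. RNA of captured nuclei went through single-primer isothermal amplification, per the labels' protocols. The authors deposited raw counts per Ensembl gene and RPKM, which equal the count divided by gene length and library total. Genes passing filterByExpr (18451) were scaled by TMM and fitted with edgeR 4.0.16 in R 4.3.3 (quasi-likelihood test, 1 model of 4 groups, 12 libraries, Benjamini-Hochberg over all tested genes, threshold 0.05). The SE was obtained as the log2 fold change over the root of the F statistic. Each library is a pool of 3 animals, so p-values measure the spread between pools.

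The 8 genes and the gene lists were chosen with earlier results of these data known. All 8 are named; from each list up to 4 genes called at 7 or 14 days against sham or at 14 against 7 days are eligible, otherwise up to 2 by level, with B-lineage markers near 0 by name. Likeness took the 3 highest Pearson r per gene (log2 CPM, prior count 2), leaving out predicted genes and pseudogenes. Some genes that these rules name are not reported here. Alternatives were size factors, DESeq2 1.42.0, no filter, a stricter filter, a replicate block, a fit restricted to the groups compared, limma 3.58.1 on RPKM (log2, pseudocount 1 or 0.1), and each library left out. The edgeR script was tested on simulated data. Gene positions are from GENCODE M21 and figures from matplotlib 3.10.9.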

Additional observations from a re-analysis of the deposited data

How the results depend on the processing

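At 14 days against sham, Ighm, Ighd, Bank1 and Cd22 kept direction and call under every alternative run, and so did Bank1 and Cd22 at 7 days. With only the groups compared, 2 of the 7 genes (Bank1 and Cd22) passed at 7 days against sham and 2 at 14 against 3 days; without the filter on low counts 1 (Ighd) passed at 7 against 3 days. Leaving out 1 library gave 3 to 4 genes at 7 days against sham and 0 to 1 at 7 against 3 days. Replicate numbers did not pair the libraries: over 13 same-numbered pairs the correlation of deviations ran from -0.298 to 0.069. The replicate block changed no call among the 7 genes, with 4 called against sham at each time and 0 between times.

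Signs turned only for values that passed no test. With the replicate block these were Blnk at 14 days against sham (0.036), Ighm (-0.11) and Cd22 (-0.18) at 7 against 3 days, and Bank1 at 14 against 7 days (0.011). On log2 RPKM with pseudocounts of 1 and 0.1 they were Blnk (0.068 and 0.069) and Btk (0.022 and 0.023) at 14 days against sham, and Lyn at 14 against 3 days (0.024 and 0.024). They were also Ighm (-0.019 and -0.019) and Cd22 (-0.045 and -0.058) at 7 against 3 days, and Bank1 at 14 against 7 days (0.045 and 0.059). With 1 library left out, Blnk ran from -0.23 to 0.16 at 14 days and from -0.11 to 0.32 at 7 days against sham, and Lyn from -0.21 to 0.13 at 7 days. At 7 against 3 days Ighm ran from -0.24 to 0.27, Cd22 from -0.32 to 0.23, Btk from -0.058 to 0.030 and Bank1 from -0.11 to 0.51. At 14 against 3 days Lyn ran from -0.10 to 0.037, and at 14 against 7 days Bank1 ran from -0.28 to 0.32 and Ighd from -0.89 to 0.057. The cause was not tested.

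Counts over all genes moved more. At 3 days against sham 1817 passed with only the groups compared, and 1866 to 4152 with 1 library left out. At 7 days against sham 2889 passed without the filter, 172 with only the groups compared, 1137 and 1069 by limma with pseudocounts of 1 and 0.1, and 827 to 3065 with 1 library left out. At 14 days the counts were 2822 without the filter, 925 with only the groups compared and 701 to 2793 with 1 library left out. At 7 against 3 days 564 to 2490 passed with 1 library left out. At 14 against 3 days 2045 passed without the filter, 4886 with only the groups compared and 435 to 844 with 1 library left out. At 14 against 7 days 1562 passed without the filter, 1608 with the block, 1827 with only the groups compared, 1079 by DESeq2, 218 by limma with a pseudocount of 0.1 and 1 to 301 with 1 library left out. Depth limits Cd79b and the B-lineage markers, for which a few counts decide a value.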
